A study of Mus musculus with 2 samples.

Results

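The Cyp4f subfamily and Cyp4v3 are cytochrome P450 genes whose enzymes hydroxylate the tail of fatty acids. The 7 genes described here (Cyp4f13, Cyp4f14, Cyp4f15, Cyp4f16, Cyp4f17, Cyp4f18 and Cyp4v3) were chosen by symbol, without use of their values, from the 24054 genes of the deposited transcript table. That table lists 4 more Cyp4f symbols (Cyp4f37, Cyp4f39, Cyp4f40 and the pseudogene Cyp4f41-ps), which are described separately below. Liver RNA came from male C57BL/6 mice aged 8 to 12 weeks, either wild type (WT) or Pgrmc1 KO (Pgrmc1 -/Y). Pgrmc1 is an X-linked gene of a heme-binding membrane protein of the endoplasmic reticulum that binds P450 enzymes. In the KO mice a conditional allele, made in C57BL/6N cells, had been deleted over exons 1 and 2 in the whole body by Sox2-Cre, a Cre active in the early embryo, so the loss is not confined to hepatocytes. Equal masses of RNA (2.5 μg per mouse) from 5 mice of each genotype were combined into 1 pool and 1 library per genotype.

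Because the mice were pooled, there is no replicate in either group. The differences below therefore have no replicate check, and no p-value is given. Levels are in TPM, the share of a gene among all transcripts of a library scaled to a fixed sum, which takes gene length into account and so allows levels of different genes to be compared. A change is the log2 ratio of KO to WT after 1 TPM was added to both, so the changes of genes with low TPM come out too small. A gene was called higher with a fold of at least 1.4 and lower with a fold of at most 0.6 on that scale, if its mean over both libraries reached 1 TPM. The 95% intervals are exact Clopper-Pearson intervals of the log2 ratio of the authors' scaled read means, from estimated reads. They cover counting error only and not the differences between mice. The libraries held an estimated 22086692 reads on genes in KO and 29710419 in WT. Sequencing was paired and RSEM was run on pairs, so 1 estimated read stands for 1 read pair. Pgrmc1 itself was listed at 949.49 TPM in WT and 0.68 in KO, which matches the labels, and the 8 hepatocyte markers examined, such as Alb, lay between 1435 and 49729 TPM.

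P450 enzymes of family CYP4 add a hydroxyl group at or near the methyl end of a fatty acid, the omega position. Alcohol and aldehyde dehydrogenases then turn the product into a dicarboxylic acid, which peroxisomes shorten. In the CYP4F subfamily this reaction is best known for inactivating leukotriene B4, a lipid that attracts neutrophils, and for starting the breakdown of the side chains of vitamins E and K. Cyp4f14 is the main hydroxylase of tocopherol (vitamin E) in mouse liver and also acts on leukotriene B4. Cyp4f18 is the leukotriene B4 hydroxylase of mouse neutrophils and other myeloid cells. Cyp4v3 is the mouse counterpart of human CYP4V2, a fatty acid omega-hydroxylase whose loss causes Bietti crystalline dystrophy of the retina.

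Of the 7 genes, 5 lie in a cluster on mouse chromosome 17. It holds 9 of the Cyp4f symbols between positions 32452697 and 32965716 of GRCm38, the mm10 assembly, a span of 513 kb. In order along the chromosome they are Cyp4f39, Cyp4f17 (Entrez gene 208285, 32506192 to 32530158), Cyp4f16 (70101, 32536545 to 32551798), Cyp4f37, Cyp4f40, Cyp4f15 (106648, 32685631 to 32703352), Cyp4f14 (64385, 32903357 to 32917376), Cyp4f13 (170716, 32924688 to 32947415) and Cyp4f41-ps. The plus strand carries Cyp4f17, Cyp4f16 and Cyp4f15, and the minus strand Cyp4f14 and Cyp4f13. The remaining Cyp4f gene, Cyp4f18 (72054), lies on the minus strand of chromosome 8, from 71988482 to 72009668. Cyp4v3 (102294) is on the minus strand of the same chromosome, from 45305801 to 45333163. The longest coding transcript in GENCODE has 13 exons for each of the 6 Cyp4f genes and 11 for Cyp4v3.

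Every P450 enzyme holds its heme through 1 cysteine near the end of the protein. The 30 coding bases of that heme-binding stretch are shown because this motif defines the enzyme class. It can be compared base by base among the 7 genes. The bases were read from GENCODE transcripts of GRCm38, with the codon of the heme-binding cysteine in capitals.
Cyp4f13: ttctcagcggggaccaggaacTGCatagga
Cyp4f14: ttctcggcgggacccaggaacTGCatagga
Cyp4f15: ttctccgctgggcccaggaacTGCatagga
Cyp4f16: ttttctgccgggcccaggaacTGCatagga
Cyp4f17: ttttctgctgggcctaggaacTGCatagga
Cyp4f18: ttctcggctgggcccaggaacTGCatagga
Cyp4v3: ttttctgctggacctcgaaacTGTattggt
The 6 Cyp4f stretches differ from each other at 1 to 5 of the 30 bases, and Cyp4v3 differs from them at 6 to 11. Cyp4f15 and Cyp4f18, which lie on different chromosomes, differ at only 1 base here. Within Cyp4f this stretch does not always follow the identity of the whole coding sequence. Cyp4f13 and Cyp4f17 differ at 5 bases here but are identical at 84.2% of aligned coding bases. For Cyp4f15 and Cyp4f18 that identity is 79.3%. In contrast, Cyp4f16 and Cyp4f17, with the highest identity at 84.3%, differ at 2 bases here. No relation over all pairs was computed.

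Over the whole coding sequence, of 1572 to 1605 bases, pairs of Cyp4f genes were identical at 76.2% to 84.3% of aligned bases. Cyp4v3 shared 55.2% to 57.9% with them. The closest pair was Cyp4f16 and Cyp4f17, neighbours in the cluster, and the 3 closest pairs were those among Cyp4f13, Cyp4f16 and Cyp4f17.

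**Figure D1:**
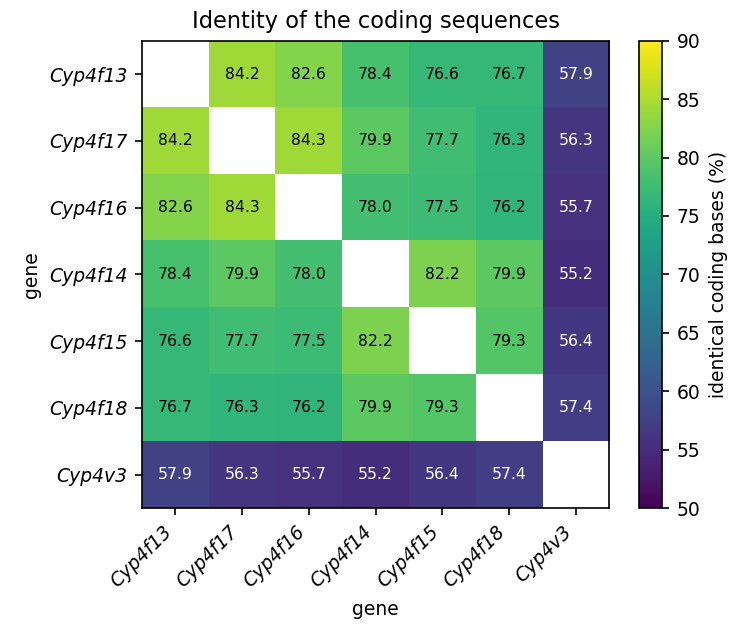
Percentage of identical bases between the aligned coding sequences of each pair of the 7 genes (rows and columns are genes, the colour and the printed number give the percentage). Pairs of Cyp4f genes lie between 76.2% and 84.3%, and Cyp4v3 stands apart with 55.2% to 57.9%.

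Identity of this degree bears on the measurement, since RSEM divides a read with several possible origins among those genes. Only 1 pair of the 7 genes had a coding run as long as a 100-base read. Cyp4f16 and Cyp4f17 share these 101 bases, from base 976 to base 1076 of both coding sequences, and a read within it cannot be assigned to either gene by its own sequence.
Cyp4f16 and Cyp4f17: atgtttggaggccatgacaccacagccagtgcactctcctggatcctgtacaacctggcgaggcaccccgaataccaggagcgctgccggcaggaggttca
Windows of 100 bases found in another gene made up 5.95% of the annotated transcripts of Cyp4f16 (mostly in Cyp4f37, which is 95.7% identical in coding sequence) and 0.0646% of those of Cyp4f17. None were found for Cyp4f13, Cyp4f14, Cyp4f15 and Cyp4f18. For Cyp4v3 the share was 5.77%, all of it with the overlapping GENCODE gene Gm45753 on the same strand, which is not among the genes of the deposited table. The values of Cyp4f16 are therefore the least certain in this respect. These windows stand for single reads, and the second read of a pair was not considered.

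The 250 bases before the annotated start were examined in RefSeq promoter sequences of GRCm38.p6, which hold 6 of the 7 genes (no entry was matched for Cyp4f17). Cyp4f14 had 4 starts there, and only the most upstream was used. All 5 Cyp4f promoters hold the letters ATTGG, which are CCAAT on the other strand, within 100 bases of the start. In this orientation and window, ATTGG occurs in 10.4% of the 32851 promoters of the table. The stretches around it are shown because this feature is shared by genes on both chromosomes and was not used to choose them; it was noticed after the sequences had been read. ATTGG is in capitals, and every stretch is written 5′ to 3′ on the strand of its gene.
Cyp4f13 (chr17:32947423-32947477, minus strand): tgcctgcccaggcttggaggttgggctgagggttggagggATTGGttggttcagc
Cyp4f14 (chr17:32917392-32917446, minus strand): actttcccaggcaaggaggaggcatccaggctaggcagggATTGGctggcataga
Cyp4f15 (chr17:32685541-32685595, plus strand): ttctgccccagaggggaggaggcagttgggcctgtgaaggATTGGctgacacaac
Cyp4f16 (chr17:32536494-32536548, plus strand): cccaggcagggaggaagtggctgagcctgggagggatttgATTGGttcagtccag
Cyp4f18 (chr8:72009660-72009714, minus strand): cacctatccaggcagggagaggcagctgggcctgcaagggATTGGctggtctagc
Counted from the start used in the promoter table, which can lie inside the outermost gene boundary given above, the letters begin 76 bases upstream in Cyp4f13, 50 in Cyp4f14, 78 in Cyp4f15, 23 in Cyp4f16 and 48 in Cyp4f18. The Cyp4v3 promoter has no CCAAT on either strand. It holds 17 CG pairs, against 2 or 3 in each of the 5 Cyp4f promoters and a median of 6 over all promoters. TATAAA was found on neither strand in any of the 6, and it occurs in 12.4% of all promoters. Such matches describe the letters and do not show that a factor binds.

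In both libraries the 7 transcripts spanned a wide range, and their order was the same at all 7 positions. Cyp4v3 was the most abundant, at 249.26 TPM in WT and 244.18 in KO. Cyp4f14 followed at 163.24 TPM in WT and 156.14 in KO. It supplied most of the Cyp4f transcripts, 53.7% of the summed TPM of the 6 genes in WT and 52.1% in KO. Cyp4f15 stood at 74.04 TPM in WT and 77.22 in KO, and Cyp4f13 at 54.45 TPM in WT and 53.18 in KO. These 4 genes were well expressed, with levels at the 92.9th percentile of all genes in the table or higher in both libraries, and their values in KO and WT lay side by side.

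Below them the levels fell off. Cyp4f17 was at 9.63 TPM in WT and 10.05 in KO, 5.65 and 5.29 times lower than Cyp4f13. Cyp4f16 was at 2.29 TPM in WT and 2.93 in KO. Cyp4f18, the neutrophil hydroxylase, was listed at 0.52 TPM in WT and 0.37 in KO. Cyp4v3 was 479 times as abundant as Cyp4f18 in WT and 660 times in KO, the wider gap resting on 7 estimated reads of Cyp4f18 in KO. With 1 library per genotype no spread is known, so it cannot be said which neighbours in this order differ beyond the variation between mice.

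**Figure D2:**
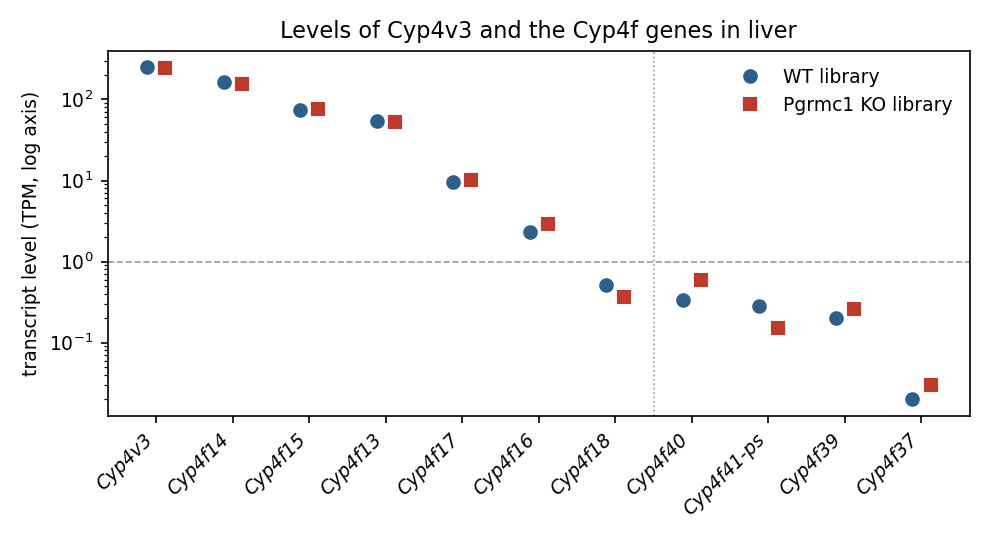
Transcript level in TPM on a log axis for the 7 genes (left of the dotted line) and the 4 other Cyp4f symbols (right), in the WT library (circles) and the Pgrmc1 KO library (squares), 1 pooled library each. The dashed line marks 1 TPM. Both libraries give the order Cyp4v3, Cyp4f14, Cyp4f15, Cyp4f13, Cyp4f17, Cyp4f16, Cyp4f18, and the 4 other symbols all lie under 1 TPM.

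Among the 100 P450 genes of the table, ranked by TPM, Cyp4v3 was number 16 in WT and number 18 in KO. Cyp4f14 was number 23 in WT and number 25 in KO. All 7 genes together made up 2.99% of P450 transcripts in WT and 2.60% in KO. Their own sum was nearly level, at 553.43 TPM in WT and 544.07 in KO, while the P450 sum was 18491 TPM in WT and 20894 in KO.

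The comparison of KO with WT asks whether the loss of Pgrmc1, which binds P450 proteins, goes with a change in P450 transcripts. None of the Cyp4f genes or Cyp4v3 was called. Of the 6 genes that reached 1 TPM, 0 were higher and 0 were lower by the fold rule; Cyp4f18 did not reach the minimum. Among all 11623 genes tested, 1.21% were called higher and 0.301% lower (1.51% in either direction), so a count of 0 among 6 is near this background and is no result about these genes. Their median log2 change was 0.01, with 3 above and 3 below 0, against -0.01 over all genes tested. The log2 ratio of the summed TPM of all 7 genes was -0.02, with an interval of -0.04 to 0.02 for the ratio of their summed read means.

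The abundant genes were measured most precisely, and their values lay close to 0. Cyp4v3 had a log2 change of -0.03, with an interval of -0.06 to 0.02 on 9502 estimated reads in KO and 12985 in WT. In fold terms, that interval runs from 0.962 to 1.01. Cyp4f14 had a log2 change of -0.06, and its interval of -0.10 to 0.01 (4328 and 6032 estimated reads) only just holds 0. Cyp4f15, the nearest relative of Cyp4f14 in coding sequence, had a log2 change of 0.06 and an interval of -0.01 to 0.16 (2136 and 2739 estimated reads). The signs of Cyp4f14 and Cyp4f15 thus differ, but both intervals hold 0. For Cyp4f13 the log2 change was -0.03 and the interval -0.13 to 0.09, on 1154 and 1579 estimated reads. The value for Cyp4f17 was 0.06, with an interval of -0.19 to 0.34 on 215 and 275 estimated reads. These 5 intervals lie wholly between the thresholds of the fold rule.

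For the remaining pair, few reads limit the statement. Cyp4f16 had the largest log2 change of the 7 genes, 0.26. Its interval of -0.09 to 0.82 rests on 81 estimated reads in KO and 85 in WT and reaches past the threshold, to a fold of 1.77. Its change stood at the 94.3rd percentile of all genes tested. Cyp4f18 had a log2 change of -0.15 and an interval of -2.12 to 0.84, on 7 and 14 estimated reads. For Cyp4f16 the interval leaves out the lower threshold and holds the upper one. The interval of Cyp4f18 holds both thresholds, so a change of the size of the fold rule was not detectable in that gene at this depth. All 7 intervals hold 0, and all 7 log2 changes lay between the 5th and the 95th percentile of the genes tested, which were -0.27 and 0.27.

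**Figure D3:**
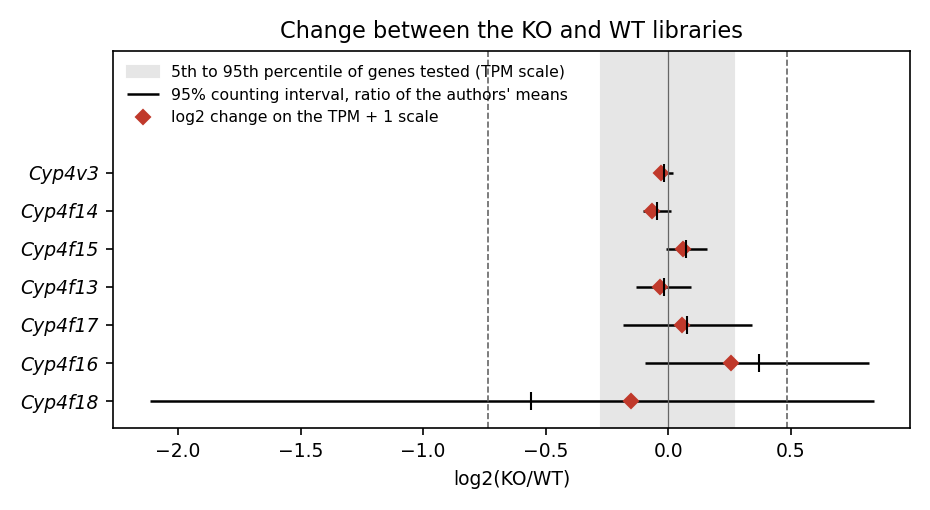
Log2(KO/WT) of the 7 genes, ordered by level: diamonds give the change on the TPM + 1 scale, and horizontal lines the 95% counting interval of the ratio of the authors' means, with a tick at that ratio. Dashed lines mark folds of 1.4 and 0.6, and the grey band runs from -0.27 to 0.27, the 5th to the 95th percentile of the genes tested. The intervals widen from Cyp4v3 to Cyp4f18 as the reads become fewer, and every one of them crosses 0.

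**Figure D4:**
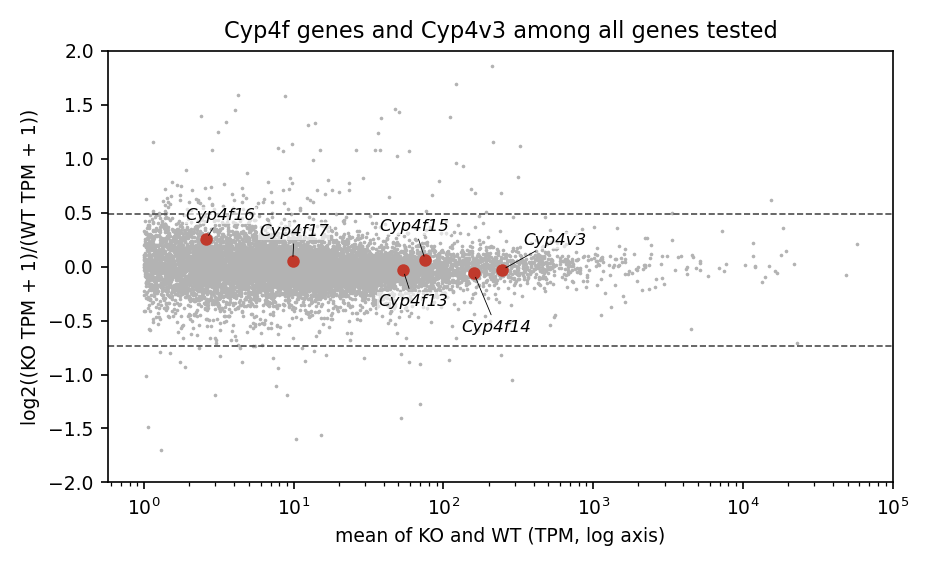
Log2 change on the TPM + 1 scale against the mean of the libraries in TPM (log axis) for the 11623 genes tested (grey points), with the 6 tested genes of the set as large points. The dashed lines mark folds of 1.4 and 0.6, and 19 genes with a log2 change beyond 2 in either direction lie outside the plot. The 6 genes lie inside the main band of points.

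The other Cyp4f symbols in the table were all under 1 TPM in both libraries. Cyp4f40 was at 0.34 TPM in WT and 0.60 in KO, on 8 and 11 estimated reads, and its interval of -0.56 to 2.41 holds 0. Cyp4f39, the counterpart of human CYP4F22, which makes the omega-hydroxylated ultra-long fatty acids of skin ceramides, was at 0.20 TPM in WT and 0.26 in KO, on 8 estimated reads in each. Cyp4f37 was listed at 0.02 TPM in WT and 0.03 in KO. The pseudogene Cyp4f41-ps was at 0.28 TPM in WT and 0.15 in KO, on 4 and 1 estimated reads. Levels this low do not allow a comparison of the genotypes.

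In whole liver, fewer cells of a type and less RNA per cell cannot be told apart. Beside the low level of Cyp4f18, the neutrophil markers were low as well. Their sum over the 11 markers in the table was 9.29 TPM in WT and 10.14 in KO, single markers ranged from 0.02 to 3.83 TPM, and 8 of the 11, Mpo and Elane among them, were under 1 TPM in both libraries. The highest was S100a9, at 2.77 TPM in WT and 3.83 in KO. The 6 B cell markers summed to 2.41 TPM in WT and 3.19 in KO, and the 8 dendritic cell markers to 8.89 and 8.69 TPM. The 10 Kupffer cell and macrophage markers summed to 349.43 TPM in WT and 393.62 in KO, a ratio of 1.13, and 9 of the 10 were above 0 on the log2 scale. The part of these cells in the value of Cyp4f18 was not tested. The 6 T and NK cell markers summed to 2.25 TPM in WT and 1.84 in KO. That order rests on Nkg7 (1.08 TPM in WT and 0.11 in KO, on 12 and 0 estimated reads, with a mean under the minimum), and the other 5 summed to 1.17 TPM in WT and 1.73 in KO. The 8 hepatocyte markers summed to 87295 TPM in WT and 83532 in KO, a ratio of 0.957, with 7 of 8 below 0, a median log2 change of -0.08 and the lowest, Tat, at -0.28. The part of this in the values of the Cyp4f genes and Cyp4v3 was not tested. The 6 cholangiocyte markers (66.96 TPM in WT, 62.04 in KO) and the 6 kidney markers (0.26 TPM in WT, 0.41 in KO) were summed in the same way. The cholangiocyte sum was mostly Spp1 (61.41 TPM in WT, 57.81 in KO). Of its 4 tested markers, 1 was above and 3 below 0, with Epcam lowest at -0.59. Single kidney markers ranged from 0.02 to 0.16 TPM. Listed TPM stay above 0 even without reads, as for Nkg7 in KO, so the kidney sums are near the floor. No marker gene that passed the minimum was called.

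A list of 14 further Cyp4 symbols in the table includes the 4 other Cyp4f symbols described above, all under the minimum. Of the 14, 7 reached a mean of 1 TPM. Among these 7, 2 were called higher, 0 lower and 5 neither, where 1.51% of all genes tested were called in either direction. The median log2 change of these 7 genes was 0.06, with 4 above and 3 below 0, and their difference from the Cyp4f genes and Cyp4v3 as a list was not tested. Cyp4a10 was at 114.47 TPM in WT and 189.06 in KO, a log2 change of 0.72 with an interval of 0.68 to 0.80. Cyp4a14, like Cyp4a10 a fatty acid omega-hydroxylase and a known PPAR alpha target, was at 65.20 TPM in WT and 103.60 in KO, a log2 change of 0.66 (interval 0.61 to 0.75). Cyp4a32 was at 13.74 TPM in WT and 18.76 in KO, and its log2 change of 0.42 stayed under the threshold. Its interval of 0.27 to 0.66 leaves out 0 and holds the upper threshold. The other tested genes had smaller changes, with Cyp4a31 at 0.06, Cyp4a12a at -0.01 and Cyp4b1 at -0.05. Cyp4a12b, the lowest of the 7 tested, was at -0.14, and its interval of -0.22 to -0.04 leaves out 0. The intervals of Cyp4a10 and Cyp4a14 overlap those of Cyp4f16 and Cyp4f18, which reach 0.82 and 0.84. They lie above those of Cyp4v3, Cyp4f14, Cyp4f15, Cyp4f13 and Cyp4f17. Cyp4a10 and Cyp4a14 are named because they passed the fold rule, so this separation follows from their choice and is no test. It concerns counting error in these libraries and not the variation between mice. Among all 54 other P450 genes that reached 1 TPM, 11 were called higher and 1 lower (22.2%), and their median log2 change was 0.09.

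Of 8 tested genes for the alcohol and aldehyde steps that follow omega-hydroxylation, 0 were called, with 6 above and 2 below 0 and a median log2 change of 0.02. With 1.51% of all genes called, counts of 0 in this and the following short lists are near the background and are no result about them. Aldh3a2, the fatty aldehyde dehydrogenase of the endoplasmic reticulum, was at 178.94 TPM in WT and 203.27 in KO. The list ran from -0.07 for Adh1, the main liver alcohol dehydrogenase, to 0.31 for Aldh1a1, a retinal dehydrogenase at 689.11 TPM in WT and 851.85 in KO, whose interval of 0.29 to 0.35 does not hold 0. Of the 11 peroxisomal genes 0 were called, with 8 above and 3 below 0 and a median log2 change of 0.06. They ran from -0.03 for Abcd3, a peroxisomal importer of dicarboxylic and branched acids, to 0.23 for Crot, the carnitine transferase that exports shortened acids, which had 479.50 TPM in WT and 563.34 in KO and an interval of 0.22 to 0.27.

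The genes around the substrates showed 0 calls among those tested. Of the 10 leukotriene synthesis genes, 4 reached 1 TPM, with log2 changes from -0.24 for Lta4h, the hydrolase that forms leukotriene B4, to 0.15 for Pla2g4a, which releases arachidonic acid from membranes. Lta4h stood at 21.99 TPM in WT and 18.49 in KO (interval -0.40 to -0.07). Alox5, the first enzyme of the path, was at 0.06 TPM in WT and 0.11 in KO. A list of leukotriene receptors, ABC transporters and enzymes that inactivate leukotrienes or prostaglandins had 4 of 9 genes tested. It ran from -0.19 for the transporter Abcc4 to 0.06 for Ptgr2. The leukotriene B4 receptor Ltb4r1 was at 0.44 TPM in WT and 0.29 in KO. The 7 tested enzymes of other arachidonic acid paths ran from -0.13 for Ptgis, prostacyclin synthase, to 0.14 for Tbxas1, thromboxane synthase. All 9 genes of vitamin E and vitamin K handling were tested. The lowest was Vkorc1l1, a vitamin K reductase, at -0.17, and Ttpa, the liver tocopherol transfer protein, had a log2 change of 0.11 (334.10 TPM in WT, 361.32 TPM in KO).

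Among 8 electron donors and relatives of Pgrmc1, only the deleted gene was called, with a log2 change of -9.14. The highest was Cyb5r1, at 0.09. Por, which supplies microsomal P450 enzymes with electrons from NADPH, had a log2 change of 0.01. Pgrmc2, the paralog of Pgrmc1, was at -0.25 (interval -0.37 to -0.12). Cyb5r3, the cytochrome b5 reductase, was at -0.20 (interval -0.23 to -0.14). Neither interval holds 0, which concerns counting error only.

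**Figure D5:**
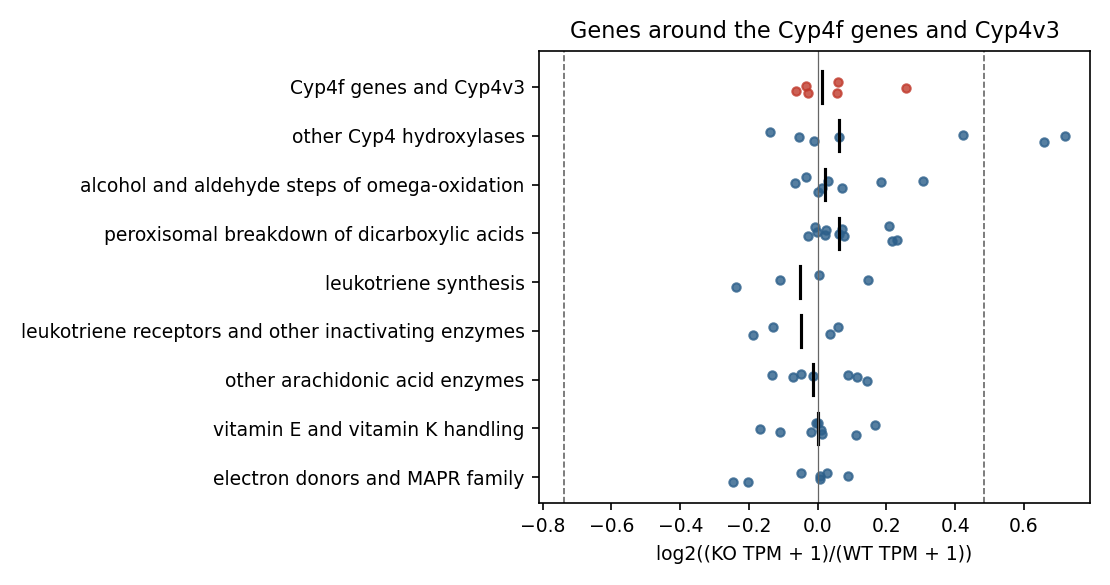
Log2 change on the TPM + 1 scale for the tested Cyp4f genes and Cyp4v3 (top row) and for the tested genes of 8 lists around them, 1 point per gene with random vertical spacing. Short black bars mark the median of each list except the lowest, from which Pgrmc1 (-9.14) is left out, and dashed lines mark folds of 1.4 and 0.6. Cyp4a10 and Cyp4a14 in the second row are the points past a threshold.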

How the data were processed

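The authors sequenced 1 stranded total RNA library per genotype as paired reads of 100 bases and, per the labels, used CASAVA 1.8.2, RSEM 1.2.09 and Bowtie with mm10. They deposited posterior mean TPM per gene for 24054 genes (sums of 1005325 for KO and 994702 for WT, so the libraries had been scaled to each other). A second deposited table, from EBSeq, holds for 16318 genes the signal of each library, that is, estimated reads divided by a size factor, with columns named by condition number. These were assigned to KO and WT from the table's name and the study's own headings for the values. Its fold changes and probabilities, the authors' own comparison, were not used. TPM keeps no depth. The most frequent value above 0 of each signal column was taken as 1 read, and 79.5% of KO and 75.7% of WT values were then whole within 0.02, so reads are estimates and no count test was run.

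Changes used a pseudocount of 1 TPM, a minimum mean of 1 TPM and folds of 1.4 and 0.6, the thresholds of the study's lists of changed genes, without its probability. Intervals used estimated reads rounded to whole numbers. Coding sequences were aligned globally between the longest coding transcripts of GENCODE M21. Motifs searched on both strands, with the share of all 32851 promoters that hold them, were TATAAA (12.4%), CCAAT (33.8%), GGGCGG (32.7%) and CACGTG (6.02%). The genes and lists were chosen with earlier results of these data known. The text names the 7 genes, the other Cyp4f symbols, Pgrmc1, and the called, highest and lowest genes of each list, except 1 gene that is not reported here. Other list genes and markers with values (Aldh3a2, Alox5, Ltb4r1, Ttpa, Por, Pgrmc2, Cyb5r3, Cyp4a32, Cyp4a31, Cyp4a12a, Cyp4b1, S100a9, Nkg7, Spp1, Epcam) were named after their values were seen. Of the listed symbols, 1 further Cyp4 symbol and 1 electron donor were not analysed here. Python 3.11.15, numpy 2.4.6, pandas 2.3.3, scipy 1.17.1, biopython 1.88 and matplotlib 3.10.9 were used.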

Additional observations from a re-analysis of the deposited data

How the results depend on the processing

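No paired analysis was possible because the mice of a genotype were pooled into 1 library, and for the same reason no replicate could be left out. None of the 7 genes was called with a pseudocount of 0.1 TPM, the authors' means, values centred to a median change of 0, TPM rescaled after removal of the 50 most abundant genes, fold thresholds of 2 and 0.5 or of 1.4 and its inverse, no minimum, or a minimum of 10 TPM. Of 28 values of single genes under the first 4 of these, 0 moved by more than the half-width of their counting interval and 0 changed sign. Centring and rescaling shift all genes nearly alike, so they could hardly move a single gene. Folds of 2 and 0.5 and a minimum of 10 TPM are stricter than the main rule, so they could add no call. At that minimum Cyp4f16, Cyp4f17 and Cyp4f18 were not tested. For Cyp4f18 the half-width was 1.48, so its move from -0.15 to -0.51 with the authors' means stayed within it. The median log2 change of the tested genes among the 7 was 0.01. It was -0.03 without a minimum and -0.03 with a minimum of 10 TPM, as different genes then enter it. The median of the leukotriene synthesis list changed from -0.05 to 0.06 without a minimum. Over all genes tested, 141 were higher and 35 lower. With 0.1 TPM the counts became 280 and 70, and with the authors' means 296 and 80. Folds of 2 and 0.5 gave 45 and 13, and a minimum of 10 TPM gave 62 and 17. With the inverse of 1.4 as the threshold, 118 were lower. A smaller pseudocount and other thresholds or minimums move such counts by construction. For the authors' means, 1 scaled read was added in place of 1 TPM. The part of this in the counts was not tested. Depth limits Cyp4f16 and Cyp4f18, and pooling limits every gene.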
